A study of Rattus norvegicus with 48 samples.

Results

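Tagln, Des and Cspg4 are 3 genes of contractile and perivascular cells, and each was measured by 1 of the 8797 probe sets of these rat kidney arrays (Tagln by 7345054, Des by 7356230 and Cspg4 by 7336548). They are the probe sets whose single gene symbol in the platform annotation is one of these names. They were picked because they were among the smooth muscle, pericyte and fibroblast genes that were higher at day 10 than at day 0 averaged over the 4 strains, so that comparison is given here as a description, with no test. The rats were male and belonged to 1 of 4 strains, which are labelled F, L, FL and LF. They were gavaged daily with indole-3-carbinol (I3C in the labels, 100 mg per kg) over 7 or 10 days, or with the vegetable oil carrier alone, and the carrier rats are the day 0 of the labels. Each of the 12 strain and day groups had 4 arrays of total kidney RNA, 48 in all. The sample labels give an age of 12 weeks, the treatment protocol 12 to 14 weeks and 8 rats per group. The labels used here do not say what the letters of the strains stand for, whether the RNA on an array came from a single rat or a pool, or whether the rats carry a transgene. The p-values therefore measure the spread between these arrays.

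Transgelin (Tagln, also called SM22 alpha) is a small actin-binding protein of the calponin family that marks differentiated smooth muscle, and its transcription is known to depend on serum response factor and myocardin. Desmin (Des) is the intermediate filament of muscle cells, and in the kidney it is found in vascular smooth muscle, mesangial cells and pericytes, and in podocytes after injury. Cspg4, also called NG2, is a transmembrane proteoglycan of pericytes and immature smooth muscle that binds platelet-derived growth factor and type VI collagen. Pericytes lie on the outside of capillaries, and in damaged kidney they are known as one source of myofibroblasts, which express contractile genes. I3C comes from cabbages and related plants. Its acid products bind the aryl hydrocarbon receptor, a transcription factor that switches on Cyp1a1, and it has been used in rats to drive transgenes placed behind the Cyp1a1 promoter.

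The RefSeq promoter table for the rat build GRCr8 held 2 of the 3 genes, Cspg4 and Des. These 2 promoters are shown because Tagln had no entry. They are reference sequence and were not read from the rats of this study, and their part in the levels described here was not tested. The 250 bases before each start are printed 5′ to 3′ on the gene's own strand, which is the plus strand for both. Capitals mark GC boxes (GGGCGG on either strand) and the E-box (CANNTG on either strand).
Cspg4, chr8:66160692-66160941: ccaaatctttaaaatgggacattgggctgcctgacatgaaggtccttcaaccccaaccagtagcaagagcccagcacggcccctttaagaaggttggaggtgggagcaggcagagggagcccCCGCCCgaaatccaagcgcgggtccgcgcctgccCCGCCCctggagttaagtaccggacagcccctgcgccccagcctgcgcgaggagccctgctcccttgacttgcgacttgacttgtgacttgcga
Des, chr9:84299376-84299625: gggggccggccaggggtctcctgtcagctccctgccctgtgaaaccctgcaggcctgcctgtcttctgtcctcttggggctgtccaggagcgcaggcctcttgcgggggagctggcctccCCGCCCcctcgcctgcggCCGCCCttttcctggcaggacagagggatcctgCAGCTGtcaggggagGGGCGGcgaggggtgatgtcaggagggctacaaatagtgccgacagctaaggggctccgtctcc
The Cspg4 window held 2 GC boxes and 0 E-boxes. The Des window held 3 GC boxes and 1 E-box, CAGCTG, which starts at position -79 from the gene's start. Neither window held TATAAA (the TATA box), CATTCC (the MCAT element of muscle genes) or a CArG box, the element that serum response factor binds. Among 33469 RefSeq rat promoters of the same length, 30.5% held a GC box, 65.5% an E-box, 12.9% TATAAA, 12.1% CATTCC and 1.5% a CArG box. A match of letters is a description and not a bound site.

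All levels are log2 array signals, so a difference of 1 is a doubling of signal, and levels of different probe sets are not compared with one another. Array medians lay between 5.66 and 6.06, and the correlation between arrays of 1 group between 0.979 and 0.992. The defining tubule genes Umod (12.53 to 13.02), Slc12a1 (10.67 to 11.44) and Lrp2 (11.59 to 12.08) were among the bright probe sets on all 48 arrays. The SD over all probe sets of an array, called its spread, ran from 2.29 to 2.54, and the 5 arrays of lowest spread were FL day 10 replicate 4, F day 10 replicate 4, FL day 7 replicates 3 and 4 and LF day 7 replicate 3. Array names in the labels share a string per replicate number. Each number was therefore taken as a run of 12 arrays, 1 from each group, although the labels do not say what such a run was. Averaged over strains, Cyp1a1 rose by 1.33 ± 0.22 at day 7 (limma, adjusted p = 8.83e-05). Within strains the day 7 rise was called in F (2.73, limma adjusted p = 0.000856). It was not called in L (1.405, 0.681), FL (0.68, 0.816) or LF (0.51, 0.539). At day 10 Cyp1a1 was called in F (2.965, limma adjusted p = 0.00015) and FL (2.015, 0.0415). L (1.45, 0.694) and LF (0.52, 0.999) did not pass at day 10.

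In F, FL and LF the group means of Tagln were higher at days 7 and 10 than in carrier kidneys. L had the highest carrier mean of the strains (8.14), was near it at day 7 (8.18) and higher at day 10 (8.47). Neither the strain differences at day 0 (moderated F test of limma, adjusted p = 0.0599) nor the strain by day interaction (0.237) was called for Tagln. On the 4 arrays of F, Tagln stood at 7.50, 7.74, 7.71 and 7.73 at day 0, at 8.50, 8.45, 8.01 and 8.70 at day 7, and at 8.12, 8.51, 8.04 and 7.92 at day 10. In FL it stood at 7.71, 7.66, 7.33 and 7.50 at day 0, at 8.57, 8.47, 8.40 and 7.65 at day 7, and at 8.09, 8.38, 8.47 and 8.09 at day 10. In both strains all day 10 arrays lay above all day 0 arrays, as did 1.65% of probe sets in F and 0.989% in FL. At day 7 this was so in F (2.92% of probe sets), while FL replicate 4 of day 7 (7.65) lay within the range of the carrier arrays. In LF, Tagln stood at 7.80, 7.80, 7.75 and 7.54 at day 0, at 8.17, 7.77, 7.91 and 8.22 at day 7, and at 8.46, 8.49, 8.50 and 8.80 at day 10. In L it stood at 8.33, 8.05, 8.15 and 8.02 at day 0, at 8.09, 8.09, 8.24 and 8.29 at day 7, and at 8.52, 8.29, 8.68 and 8.41 at day 10. LF was low at day 0, overlapped it at day 7 and was clear of both at day 10 (day 10 above day 0 on all arrays in 2.66% of probe sets). The 4 carrier arrays of L all lay above the 12 carrier arrays of the other strains, and the days of L overlapped. Over all probe sets, 5.29% did not overlap in either direction between L and F at day 0, 5.15% between L and FL and 2.32% between L and LF.

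**Figure D1:**
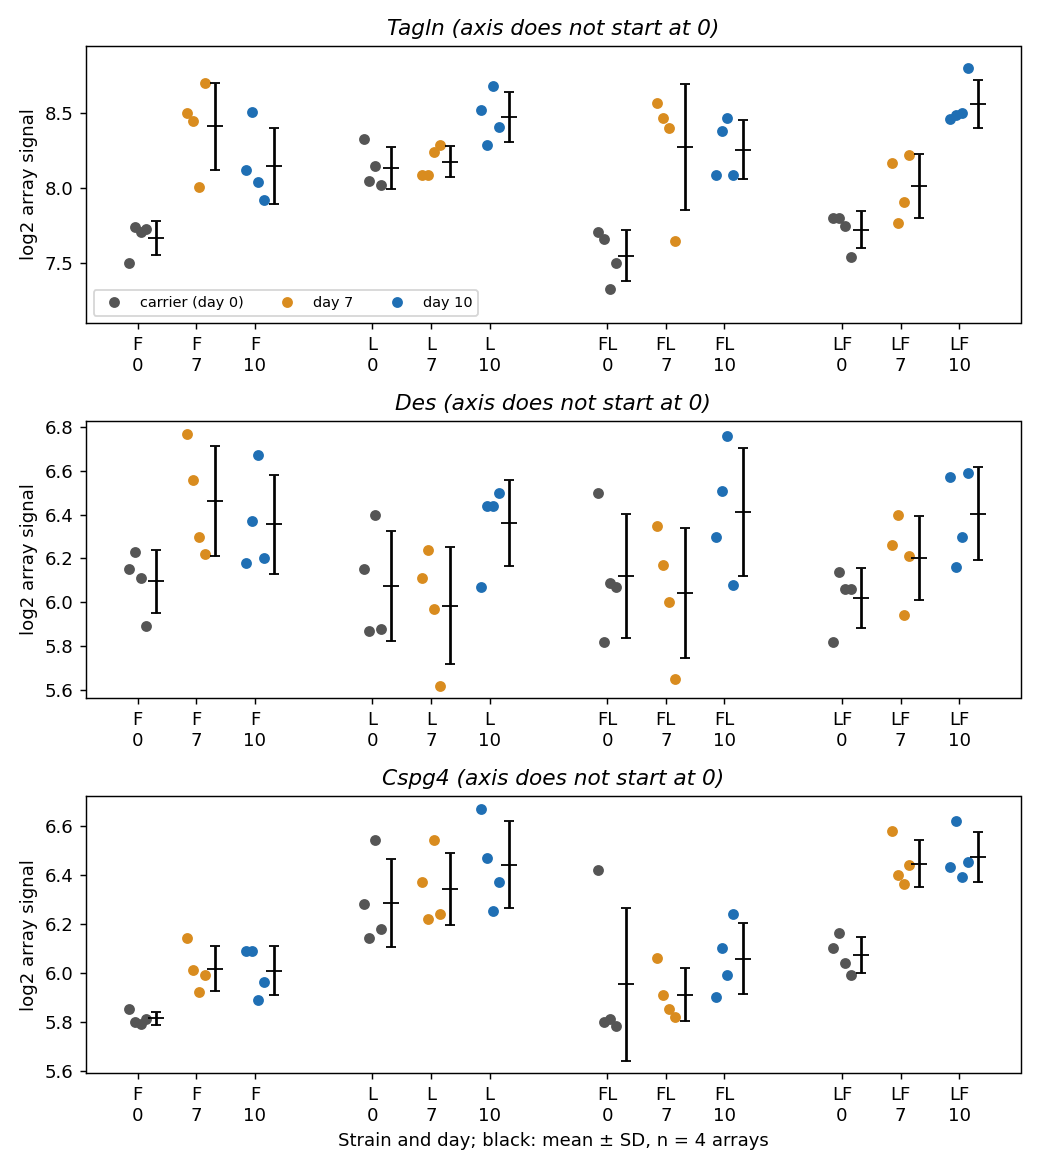
Levels of Tagln (top), Des (middle) and Cspg4 (bottom) as log2 array signal on the vertical axes, with each dot 1 array, grouped by strain (F, L, FL, LF) and day (0, 7, 10) and coloured by day; black bars are the group mean ± SD of 4 arrays, and the axes do not start at 0. The group means of Tagln are lowest at day 0 in F, FL and LF. At each day the Cspg4 arrays of L and LF lie above those of F and FL, apart from 1 FL day 0 array at 6.42.

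Averaged over strains, Tagln rose at day 7 by 0.45 ± 0.075 (difference ± SE, 95% interval 0.30 to 0.60, 1.37-fold; limma, 1 mean per group over 48 arrays, Benjamini-Hochberg adjustment over 8797 probe sets, adjusted p = 0.00012). It was the only gene of the 3 past the threshold of 0.05, in a comparison where 1.19% of all probe sets were called higher. Of 16 pairs of day 7 and day 0 arrays of the same strain and run, Tagln was higher in 14, and the mean of each run lay between 0.38 and 0.52. At day 10 it was 0.59 ± 0.075 above day 0 (95% interval 0.44 to 0.74, 1.51-fold), and higher in 16 of 16 pairs. That comparison chose the genes, and the day 7 comparison shares the day 0 arrays with it. From day 7 to day 10 Tagln differed by 0.14 ± 0.075, which did not pass the threshold (adjusted p = 0.401), in a comparison where 0.114% of probe sets were called. In bulk kidney RNA, more cells of a type and more RNA per cell cannot be told apart.

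Within strains, the day 7 rise of Tagln was called in F and FL. It was 0.74 ± 0.15 in F (group means 7.67 ± 0.11 and 8.41 ± 0.29, SD, n = 4; limma adjusted p = 0.00574), where 0.432% of probe sets were called higher. It was 0.72 ± 0.15 in FL (7.55 ± 0.17 and 8.27 ± 0.42; limma adjusted p = 0.0159), where 0.0227% were called higher. The FL call was lost without any 1 of day 0 replicates 3 and 4 (adjusted p = 0.0860 and 0.0543) or day 7 replicates 1, 2 and 3 (0.137, 0.145 and 0.0917). In LF the day 7 difference was 0.29 ± 0.15 (limma adjusted p = 0.275), and in L 0.04 ± 0.15 (95% interval -0.26 to 0.34, limma adjusted p = 0.994). In the LF group Tagln then stood 0.54 ± 0.15 higher at day 10 than at day 7 (8.02 ± 0.21 and 8.56 ± 0.16), all day 10 arrays being above all day 7 arrays, as for 7.98% of probe sets. This missed the threshold (limma adjusted p = 0.0565, with 1.07% of probe sets called higher) and passed with the run as a block (0.0316). It also passed without any 1 of 5 arrays: F day 7 replicate 3 (0.0429), FL day 7 replicate 4 (0.0218), LF day 7 replicate 1 (0.0423), F day 10 replicate 2 (0.0487) and FL day 10 replicate 4 (0.0457). At day 10 the difference from day 0, given without a test, was 0.48 in F, 0.34 in L, 0.71 in FL and 0.84 in LF (SE 0.15 each).

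**Figure D2:**
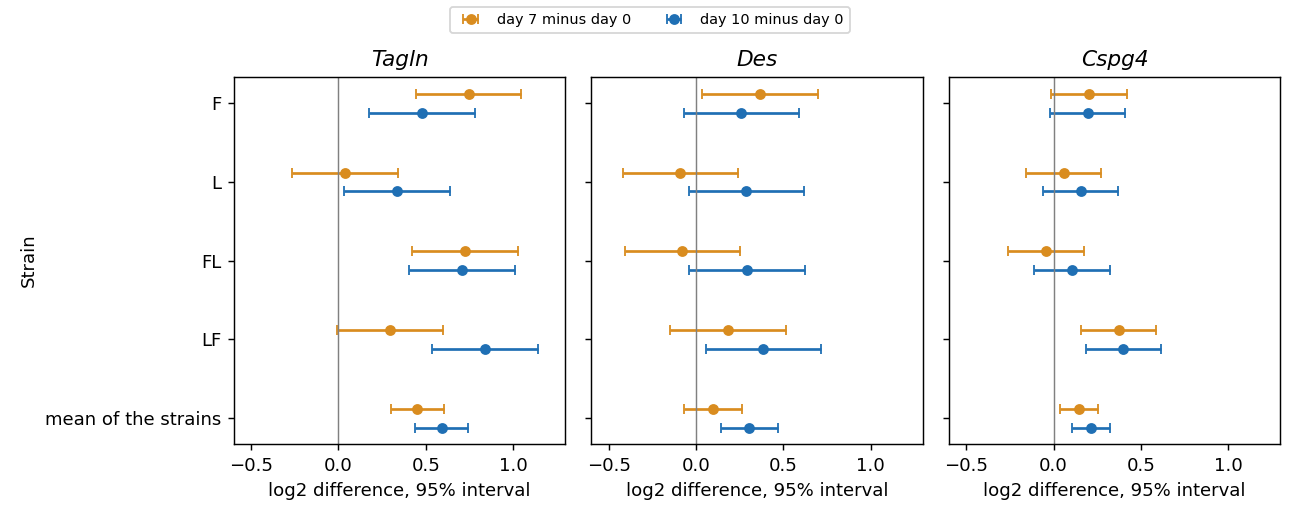
Log2 difference from day 0 (horizontal axis) at day 7 (orange) and day 10 (blue) for Tagln, Des and Cspg4 in each strain and averaged over strains (vertical axis); bars are 95% intervals of the single gene from the limma fit. The day 7 difference of Tagln is 0.74 in F and 0.72 in FL against 0.04 in L, and for Des every day 10 difference lies between 0.26 and 0.38.

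Whether the time course of Tagln differed between strains was read from the strain by day interaction (moderated F test of limma with 6 numerator degrees of freedom). Tagln had F = 4.37, an unadjusted p of 0.00178 and an adjusted p of 0.237, so it was not called, and 0.193% of probe sets were. Without FL day 7 replicate 4, which read 7.65, the same test gave F = 7.27 and an adjusted p of 0.0265. Of 12 pairwise differences between strains in the day 7 or day 10 response, 0 were called for Tagln and 4 had an unadjusted p under 0.05, the smallest being L against F at day 7 (-0.70 ± 0.21, unadjusted p = 0.00193, adjusted p = 0.628). In those 12 comparisons between 0% and 0.114% of probe sets were called.

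Des was not called at day 7, and at day 10 its mean was above day 0 in each strain. In F, Des stood at 6.15, 6.23, 6.11 and 5.89 at day 0, at 6.77, 6.56, 6.30 and 6.22 at day 7, and at 6.18, 6.37, 6.67 and 6.20 at day 10. In L it stood at 6.15, 5.87, 6.40 and 5.88 at day 0, at 6.11, 6.24, 5.97 and 5.62 at day 7, and at 6.07, 6.44, 6.44 and 6.50 at day 10. Both strains overlapped between days, and the highest Des value of all 48 arrays was the 6.77 of F at day 7. In FL it stood at 6.50, 5.82, 6.09 and 6.07 at day 0, at 6.35, 6.17, 6.0 and 5.65 at day 7, and at 6.30, 6.51, 6.76 and 6.08 at day 10. In LF it stood at 5.82, 6.14, 6.06 and 6.06 at day 0, at 6.26, 6.40, 5.94 and 6.21 at day 7, and at 6.57, 6.16, 6.30 and 6.59 at day 10. LF was the only strain whose day 10 arrays all lay above its day 0 arrays (6.16 against 6.14 at the closest), as for 2.66% of probe sets.

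Averaged over strains, the day 7 difference of Des was 0.096 ± 0.082 (95% interval -0.070 to 0.26, limma adjusted p = 0.532), and it was higher in 9 of 16 pairs of the same run. At day 10 Des was 0.31 ± 0.082 above day 0 (95% interval 0.14 to 0.47, 1.24-fold) and higher in 14 of 16 pairs, again as the comparison that chose it. The step from day 7 to day 10 was 0.21 ± 0.082, with an unadjusted p of 0.0138 and a limma adjusted p of 0.313. Within strains the day 7 difference was 0.37 ± 0.16 in F (limma adjusted p = 0.611), -0.090 in L, -0.078 in FL and 0.18 in LF, and none passed. The day 10 differences were 0.26, 0.29, 0.29 and 0.38 in F, L, FL and LF (SE 0.16 each). Strains were not called different in Des at day 0 (F = 0.135, limma adjusted p = 0.991) or in its response (F = 1.29, limma adjusted p = 0.947). Group means of Des spanned 0.48, from L at day 7 (5.98) to F at day 7 (6.46), against a pooled SD within groups of 0.23.

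The group means of Cspg4 were higher in L and LF than in F and FL at each day. In F, Cspg4 stood at 5.85, 5.80, 5.79 and 5.81 at day 0, at 6.14, 6.01, 5.92 and 5.99 at day 7, and at 6.09, 6.09, 5.89 and 5.96 at day 10. In FL it stood at 6.42, 5.80, 5.81 and 5.78 at day 0, at 6.06, 5.91, 5.85 and 5.82 at day 7, and at 5.90, 6.10, 5.99 and 6.24 at day 10. Apart from the 6.42 of FL day 0 replicate 1, the highest of these 24 arrays was 6.24. In L it stood at 6.28, 6.14, 6.54 and 6.18 at day 0, at 6.37, 6.22, 6.54 and 6.24 at day 7, and at 6.67, 6.47, 6.25 and 6.37 at day 10. In LF it stood at 6.10, 6.16, 6.04 and 5.99 at day 0, at 6.58, 6.40, 6.36 and 6.44 at day 7, and at 6.43, 6.62, 6.39 and 6.45 at day 10. The lowest array of L was 6.14, and the treated arrays of LF (6.36 and above) were clear of its carrier arrays.

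Strains differed in Cspg4 at day 0 (moderated F test of limma with 3 numerator degrees of freedom, F = 6.98, adjusted p = 0.0266), a test that called 3.43% of all probe sets. The call was lost without any 1 of 5 arrays, namely F day 0 replicates 2, 3 and 4 (adjusted p = 0.0565, 0.0620 and 0.0569) and L day 0 replicates 1 and 3 (0.0644 and 0.161), and F rose to 12.7 without FL day 0 replicate 1. It was also lost after a second quantile normalization of the arrays (F = 5.02, adjusted p = 0.0667). In the same test Tagln had F = 5.79 and a limma adjusted p of 0.0599, so it was not called. It passed without FL day 7 replicate 4 (limma adjusted p = 0.0132), F day 7 replicate 3 (0.0404) or F day 10 replicate 2 (0.0435). The same held without all of replicate 4 (0.0284). It also passed with each array's spread as a covariate (F = 5.61, 0.0400) and with array weights (F = 6.53, 0.0207). So it did with the dimmest probe sets left out (F = 5.82, 0.0457) and without the 5 arrays of lowest spread (F = 8.07, 0.0127).

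The pairs of strains showed where Cspg4 differed. L or LF was set against F or FL in 12 comparisons, 4 pairs at each of 3 days, of which the pairs at days 7 and 10 were added after the values were seen. Sorting the strains in this way was itself read from the Cspg4 values. The Cspg4 counts over these 12, and over the pairs F with FL and L with LF, therefore follow in part from the sorting. Cspg4 was higher in L or LF in 12 of 12, by 0.12 to 0.53, with groups not overlapping in 10. Over all probe sets, the share that did not overlap in either direction was 5.29% for L and F, 7.8% for LF and F, 5.15% for L and FL and 9.39% for LF and FL at day 0. The shares in the same order were 6.4%, 6%, 6.43% and 5.72% at day 7, and 8.73%, 9.51%, 5.45% and 6.01% at day 10. Without FL day 0 replicate 1 the groups did not overlap in 12. Of the 12, 7 were called. At day 0 L exceeded F by 0.47 ± 0.11 (limma adjusted p = 0.00872), in a comparison that called 1.55% of probe sets. At day 7 LF exceeded FL by 0.53 ± 0.11 (0.00156) and F by 0.43 ± 0.11 (0.0182), and L exceeded FL by 0.43 ± 0.11 (0.0181, limma throughout), where 2.46%, 2.16% and 1.93% of probe sets were called. At day 10 LF exceeded F by 0.46 ± 0.11 (limma adjusted p = 0.00608) and FL by 0.41 ± 0.11 (0.0217), and L exceeded F by 0.43 ± 0.11 (0.0133), where 4.23%, 2.49% and 3.86% of probe sets were called.

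The remaining 5 of the 12 differences were not called. They were L against F at day 7 (0.33, limma adjusted p = 0.123), LF against F at day 0 (0.26, 0.317), LF against FL at day 0 (0.12, 0.635), L against FL at day 0 (0.33, 0.129) and L against FL at day 10 (0.38, 0.0566, and 0.0245 with the run as a block). These comparisons called 2.14%, 2.11%, 3.07%, 1.59% and 1.59% of probe sets. Without FL day 0 replicate 1, L was called above FL at day 0 (limma adjusted p = 0.00194) and day 10 (0.0132) and above F at day 7 (0.0386). L against FL at day 10 also passed without L day 0 replicate 3 (0.0431), L day 10 replicate 3 (0.0406) or FL day 10 replicate 4 (0.0377). Between F and FL, and between L and LF, 0 of 6 comparisons of Cspg4 were called, 0 had an unadjusted p under 0.05, and 0 had groups that did not overlap, with differences from -0.21 to 0.14, where 0.0227% to 0.659% of probe sets were called and 1.22% to 5.83% did not overlap. For Tagln, 2 of the 12 comparisons did not overlap and 1 was called, L above FL at day 0 (0.59 ± 0.15, limma adjusted p = 0.0262), and for Des 0 did not overlap and 0 were called. With array weights, Des was called lower in L than in F at day 7 (-0.49, limma adjusted p = 0.0485), and Tagln higher in L than in F at day 0 (0.0422, and 0.0469 with the 5 lowest-spread arrays left out) and in LF than in F at day 10 (0.0487, and 0.0455 without F day 10 replicate 2). Tagln was also called lower in LF than in FL at day 7 without replicate 4 (-0.53, 0.0376). In the main fit none of these was called (limma adjusted p = 0.157, 0.144, 0.114 and 0.600, in the order named). Tagln in LF at day 0 was 0.415 below L there and was not called either (limma adjusted p = 0.645).

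Several of these pair calls of Cspg4 rested on single arrays. L against F at day 0 was lost without L day 0 replicate 3 (limma adjusted p = 0.0836), and at day 10 without F day 10 replicate 3 (0.0574) or L day 10 replicate 1 (0.0915). L against FL at day 7 was lost without L day 7 replicate 1 (0.0587) or 3 (0.130), or without FL day 7 replicate 3 (0.0733) or 4 (0.0840). LF against F at day 7 was lost without F day 7 replicate 3 (0.0782) or LF day 7 replicate 1 (0.0691). LF against FL at day 10 was lost without FL day 10 replicate 1 (0.0911) or 3 (0.0654) or LF day 10 replicate 2 (0.110). The calls of LF above FL at day 7 and of LF above F at day 10 held without any single array, but the first was lost without the 5 arrays of lowest spread (0.0912) and the second after a second quantile normalization (0.0898). L against FL at day 7 was also lost without those 5 arrays (0.350). With a whole run out, 7 of 7 pair calls were lost without replicate 2 (0.0525 to 0.242), 6 without replicate 3 (0.0573 to 0.384), 6 without replicate 4 (0.0530 to 0.123) and LF against FL at day 10 without replicate 1 (0.0561). The call of Tagln in L above FL at day 0 was lost without L day 0 replicates 1 or 3 (limma adjusted p = 0.129 and 0.0808) or FL day 0 replicates 3 or 4 (0.146 and 0.0769), and after a second quantile normalization (0.0623).

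Whether Cspg4 was called at day 7 depended on the setting. Averaged over strains, it was 0.15 ± 0.054 above day 0 at day 7 (95% interval 0.039 to 0.26, 1.11-fold), with an unadjusted p of 0.00883 and a limma adjusted p of 0.0993, and it was higher in 14 of 16 pairs of the same run. Without FL day 0 replicate 1 the difference was 0.19 and was called (limma adjusted p = 0.0117). It was also called with all 48 arrays when they were quantile normalized once more (0.22, limma adjusted p = 0.00682), with array medians subtracted (0.20, 0.0114), with the spread as covariate (0.18, 0.0343) and with array weights (0.16, 0.0281). At day 10 it was 0.21 ± 0.054 above day 0 (95% interval 0.11 to 0.32, 1.16-fold) and higher in 14 of 16 pairs, given as a description. From day 7 to day 10 the difference was 0.066 ± 0.054 (limma adjusted p = 0.569). LF had the largest within-strain difference at day 7, 0.37 ± 0.11 (group means 6.07 ± 0.074 and 6.44 ± 0.096), with all day 7 arrays above all day 0 arrays, as for 2.22% of probe sets. It missed the threshold (limma adjusted p = 0.0523, with 0.386% of probe sets called higher) and passed with the run as a block (0.0219), after a second quantile normalization (0.52, 0.00334), with array medians subtracted (0.49, 0.00447), with the spread as covariate (0.0135), with array weights (0.0424) and without the dimmest probe sets (0.0401). It also passed without any 1 of 8 arrays, with adjusted p from 0.0173 without FL day 0 replicate 1 to 0.0499 without L day 7 replicate 3, the others being L day 0 replicate 3, FL day 0 replicate 3, L day 10 replicates 1 and 3 and FL day 10 replicates 1 and 4. In F all day 7 and all day 10 arrays also lay above all day 0 arrays, as for 2.92% and 1.65% of probe sets. The day 7 differences in F (0.20 ± 0.11, limma adjusted p = 0.778), L (0.057) and FL (-0.042) did not pass. The response of Cspg4 was not called different between strains (F = 1.58, limma adjusted p = 0.946).

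The 12 group means of Tagln spanned 1.01 (2.02-fold), from FL at day 0 (7.55) through F and LF at day 0 to L (8.47) and LF (8.56) at day 10, against a pooled SD within groups of 0.21. Of the 11 steps between neighbours in that order, 1 was wider than the larger SD of the 2 groups, the step of 0.29 from LF at day 0 to LF at day 7. The means of Cspg4 spanned 0.66 (1.58-fold), from F at day 0 (5.81) to LF at day 10 (6.47), against a pooled SD of 0.15. There 1 of 11 steps was wider than the larger SD, the step of 0.21 from LF at day 0 to L at day 0, which parted the F and FL groups and the LF carrier kidneys from the rest. For Des 0 of 11 steps were. Over the 12 group means the correlation was 0.61 between Tagln and Des, 0.52 between Tagln and Cspg4 and 0.18 between Des and Cspg4 (Pearson r). These points share arrays and runs, so the values describe the groups and carry no p.

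For each gene, the 5 genes with the most similar 12 group means were named among 7588 others by Pearson r. For Tagln they were Tsc22d1 (r = 0.894, a gene induced by transforming growth factor beta), Sfrp4 (0.862, a secreted Wnt antagonist), Slc2a3 (0.858, a glucose transporter), Klk1b3 (0.857, a kallikrein) and Tgfb3 (0.846, a transforming growth factor beta ligand). For Des they were C6 (0.951, a complement component), Fgb (0.908) and Fga (0.879), which encode fibrinogen chains, Il24 (0.898, a cytokine) and Osmr (0.883, the oncostatin M receptor). For Cspg4 they were Sytl5 (0.927), Mcam (0.924), Pex11a (0.918, a peroxisomal membrane protein), Ggh (0.916, gamma-glutamyl hydrolase) and Sult1b1 (0.914, a sulfotransferase). Over the 48 single arrays the same r was 0.762 for Tagln with Tsc22d1, 0.565 for Des with C6 and 0.723 for Cspg4 with Mcam. C6, Il24 and Sfrp4 had group means near the dim end of the arrays (2.95 to 3.55, 3.07 to 3.62 and 3.23 to 3.44).

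Mcam, a cell adhesion molecule also known as CD146 and another marker of pericytes, was named for its likeness to Cspg4, and its group means were likewise higher in L and LF than in F and FL at each day, which a choice by likeness favours. Its group means were 6.90, 6.98 and 6.94 in F at days 0, 7 and 10, 6.74, 6.85 and 6.95 in FL, 7.22, 7.19 and 7.38 in L, and 7.11, 7.23 and 7.43 in LF. Notch3, a receptor of mural cells, was called different between strains at day 0 (limma F test, adjusted p = 0.00188). Its means were 6.79, 6.83 and 6.65 in F, 6.74, 6.81 and 6.75 in FL, 7.14, 7.11 and 7.12 in L, and 6.97, 6.88 and 7.07 in LF. Of 17 measured pericyte and mesangial genes, Cspg4 and Notch3 were the 2 called in that test, and 0 of 20 contractile genes were, against 3.43% of all probe sets. Not all pericyte genes kept the order of L and LF above F and FL. At day 7 the mean of Rgs5 was 7.84 in F against 7.74 in L and 7.72 in LF. Pdgfrb was then 7.89 in F and 7.86 in FL against 7.855 in LF. At days 0 and 10 both genes had higher means in L and LF.

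**Figure D3:**
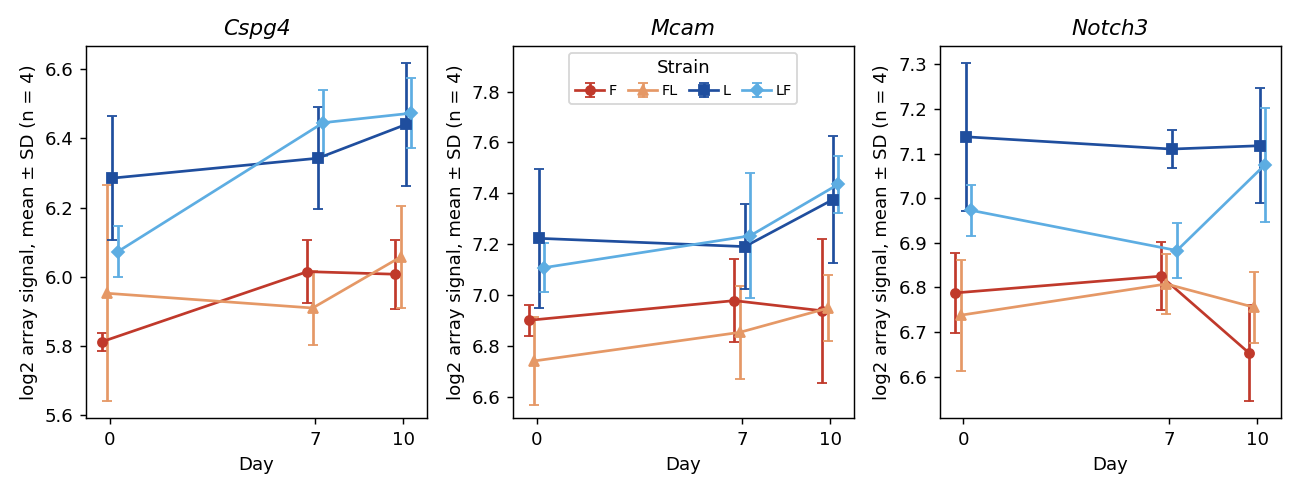
Group means ± SD of 4 arrays, as log2 array signal, for Cspg4, Mcam and Notch3 (vertical axes, not starting at 0) against day (0, 7, 10), with 1 line per strain and points shifted slightly sideways. Cspg4 means of L and LF (6.07 to 6.47) lie above those of F and FL (5.81 to 6.06), and Mcam and Notch3 show the same order of strain pairs at each day. Mcam is shown for its likeness to Cspg4 and Notch3 for its strain call at day 0, and Rgs5 and Pdgfrb, not shown, broke that order at day 7.

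The other contractile genes moved little, and those that were called moved up. Of 18 measured smooth muscle contractile genes besides Tagln and Des, 2 rose and 0 fell at day 7, where 1.19% of all probe sets were called higher and 3.75% lower. At day 10, 4 rose and 0 fell, where 1.26% of all probe sets were called higher and 1.15% lower. The median difference of these 18 genes was 0.036 at day 7 and 0.095 at day 10, against -0.029 and -0.0031 over all probe sets. Actg2, the enteric smooth muscle actin, rose at both days (0.23 ± 0.071, limma adjusted p = 0.0491, and 0.33 ± 0.071, adjusted p = 0.00377). Cnn1, calponin and thus a relative of transgelin, rose at day 7 (0.22 ± 0.057, limma adjusted p = 0.0193), most in F (0.56 ± 0.11, adjusted p = 0.00617), and its day 10 difference of 0.17 did not pass (0.116). The tropomyosins Tpm1 (0.19 ± 0.054, limma adjusted p = 0.0417) and Tpm2 (0.28 ± 0.080, 0.0453) and the actinin-binding Pdlim3 (0.18 ± 0.050, 0.0308) rose at day 10. The smoothelin gene Smtn (-0.18), caldesmon Cald1 (0.042) and phospholamban Pln (0.17) did not pass at day 10. The genes of smooth muscle actin (Acta2) and myosin (Myh11) were not analysed here.

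In the calponin family, 1 of 4 other measured genes rose at day 7 (Cnn1) and 0 at day 10, with Tagln2 at 0.17 and Tagln3 at -0.077 at day 10. Of 6 measured regulators of smooth muscle transcription (Myocd, Mef2d, Klf4, Gata6, Csrp2 and Notch3), 0 were called at either day by limma. Over all probe sets, 1.19% were called higher and 3.75% lower at day 7, and 1.26% and 1.15% at day 10. Myocd, which encodes myocardin, differed by 0.019 at day 7 and -0.0069 at day 10. Klf4, a repressor of contractile genes, differed by 0.13 and 0.22 (limma adjusted p = 0.357 and 0.196).

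Apart from Des and Cspg4, 15 pericyte and mesangial genes were measured. Of these, 0 rose and 3 fell at day 7, where 1.19% of all probe sets were called higher and 3.75% lower. At day 10, 0 rose and 2 fell, where 1.26% of all probe sets were called higher and 1.15% lower. Des and Cspg4, left out of this count, were chosen from the genes called higher at day 10, and Mcam, at 0.18 ± 0.068, was not called there (limma adjusted p = 0.222). Angpt1, the angiopoietin ligand that pericytes supply to endothelium, fell by 0.67 ± 0.098 at day 7 (limma adjusted p = 1.72e-05) and 0.43 ± 0.098 at day 10 (0.00742). Agtr1a, the main angiotensin II receptor gene, fell by 0.50 ± 0.10 at day 7 (limma adjusted p = 0.00191). Vtn, vitronectin, fell by 0.17 ± 0.046 at day 7 (limma adjusted p = 0.0245, 0.221 with array medians subtracted and 0.102 with the 5 lowest-spread arrays left out) and by 0.23 ± 0.046 at day 10 (0.00163). Pdgfrb, the receptor that defines pericytes, differed by -0.026 at day 7 and 0.081 at day 10 (limma adjusted p = 0.851 and 0.866), and Rgs5 by -0.12 and 0.057 (0.505 and 0.989). The median of the 15 was -0.039 at day 7 and -0.011 at day 10.

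**Figure D4:**
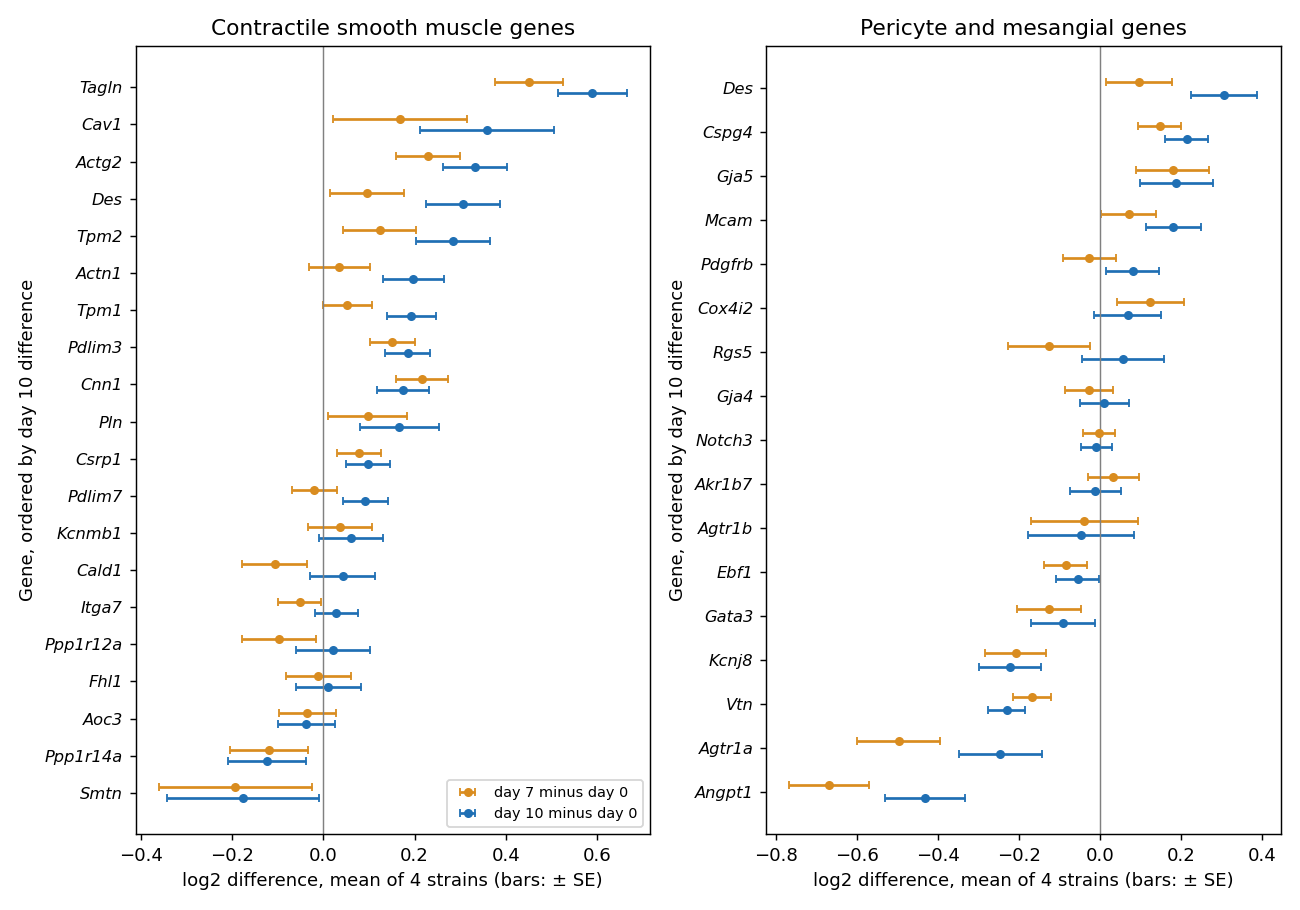
Log2 difference from day 0 averaged over 4 strains, with bars of ± SE, at day 7 (orange) and day 10 (blue) for the 20 measured contractile genes (left) and the 17 measured pericyte and mesangial genes (right), ordered by the day 10 difference. Tagln lies farthest right at both days (0.45 and 0.59), and Angpt1 farthest left (-0.67 and -0.43).

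Among 11 measured ligands and partners of Cspg4, 0 rose and 2 fell at day 7, and 1 rose and 1 fell at day 10 (over all probe sets 1.19% and 3.75% at day 7, 1.26% and 1.15% at day 10). Pdgfa, the growth factor chain that Cspg4 is known to bind, fell by 0.25 ± 0.053 at day 7 (limma adjusted p = 0.00286, and 0.124 after a second quantile normalization) and by 0.26 ± 0.053 at day 10 (0.00163). Pdgfc fell by 0.39 ± 0.081 at day 7 (limma adjusted p = 0.0024), and with the run as a block it was also called at day 10 (0.0271). So it was after a second quantile normalization (0.0045), with medians subtracted (0.00976) and with the spread as covariate (0.00599). Lgals3, galectin 3, rose by 0.34 ± 0.076 at day 10 (limma adjusted p = 0.00652), and with the block also at day 7 (0.0364). Among 16 intermediate filament genes and desmin partners, 2 rose and 0 fell at either day. These were Vim, the filament of mesenchymal cells (0.19 ± 0.056, limma adjusted p = 0.0350, and 0.35 ± 0.056, 5.51e-05), and the small heat shock gene Hspb1 (0.26 ± 0.067, 0.0135, and 0.35 ± 0.067, 0.000708). Synm, synemin, a binding partner of desmin, differed by -0.11 and -0.13 and did not pass.

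Genes of transforming growth factor beta signalling and of the matrix moved in both directions. Of 14 in the first list, 2 rose (Ltbp2 by 0.14 and elastin Eln by 0.21, limma adjusted p = 0.0374 and 0.0411) and 1 fell at day 7 (Ltbp1 by 0.25, 0.00934), and Ltbp1 alone was called at day 10 (fell by 0.21, 0.0490). The shares of all probe sets called higher and lower were 1.19% and 3.75% at day 7, and 1.26% and 1.15% at day 10. Without the 5 arrays of lowest spread Ltbp2, Eln and, at day 10, Ltbp1 were lost (0.0888, 0.0750 and 0.142), and Ltbp2 also with the spread as covariate (0.0637). Tgfb1 differed by -0.10 and 0.051 and did not pass. Of 15 fibroblast and matrix genes, Lum, Mgp and Timp1 rose at both days. Lum, a proteoglycan of collagen fibrils, rose by 0.65 and 0.68, Mgp by 0.39 and 0.61, and the protease inhibitor Timp1 by 0.50 and 0.83. Grem1, an antagonist of bone morphogenetic proteins, fell by 0.99 and 0.75, and Thy1 fell by 0.30 at day 7, a call lost after a second quantile normalization (limma adjusted p = 0.102), with medians subtracted (0.0669) and with the spread as covariate (0.112).

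Markers of other cells that could carry these genes were read beside them. Of 11 measured skeletal and cardiac muscle markers, such as Ckm, Mb and Myog, 0 rose and 0 fell at either day, and their mean level, centred per gene, ranged from -0.14 to 0.13 on the day 0 arrays, -0.10 to 0.18 at day 7 and -0.19 to 0.20 at day 10. Of 7 adipocyte markers 0 were called. Endothelial markers had 0 of 9 higher and 2 lower at day 7 (Emcn and Plvap), podocyte markers 0 of 11 higher and 2 lower (Podxl and Ptprq), and macrophage markers 0 of 12 higher and 2 lower (Adgre1 and Aif1), against 1.19% of all probe sets higher and 3.75% lower. Some of these day 7 calls were lost under other settings, Aif1 with medians subtracted (limma adjusted p = 0.0577), Plvap and Adgre1 with the spread as covariate (0.0588 and 0.0663), and Podxl and Adgre1 without the 5 arrays of lowest spread (0.0627 and 0.0710). At day 10 Itgam was the 1 macrophage marker called higher, and Ptprq the 1 podocyte marker called lower, where 1.26% of all probe sets were higher and 1.15% lower. Emcn, Plvap, Podxl and Adgre1 were called lower at day 10 too when the arrays were quantile normalized once more (limma adjusted p = 0.00194, 0.00604, 0.0282 and 0.0111), with medians subtracted and with the spread as covariate. Kidney tubule markers fell in 8 of 15 at day 7 and 5 of 15 at day 10, with a centred mean of -0.070 to 0.27 on day 0 arrays, -0.24 to 0.042 at day 7 and -0.31 to 0.18 at day 10. The day 7 call of Umod was lost after a second quantile normalization (limma adjusted p = 0.229), and that of Lrp2 with medians subtracted (0.0920). In both settings Slc5a2 was lost (0.0777 and 0.0786), as with the spread as covariate (0.0755). Without the 5 arrays of lowest spread, Umod was lost at day 7 (0.0545), and Slc12a1 and Scnn1g at day 10 (0.0828 and 0.0900). Umod was called at day 10 with medians subtracted (0.0186) and with the spread as covariate (0.00866). By strain, the centred mean of the podocyte markers at day 0 was 0.15 in L and 0.14 in LF against -0.0074 in F and -0.035 in FL, and at day 10 it was 0.15 and 0.15 against -0.15 and -0.046. For the macrophage markers it was 0.15 and 0.21 against -0.024 and -0.16 at day 0, and 0.11 and 0.26 against -0.26 and 0.036 at day 10. At day 7 the means of L and LF were -0.0031 and -0.12 for podocyte markers and -0.059 and -0.12 for macrophage markers, against -0.055 and -0.17, and -0.0047 and -0.14, in F and FL. The array spread averaged 2.45 over the 24 L and LF arrays and 2.42 over the 24 of F and FL. The part of these marker levels and of the spread in the differences of Tagln, Des and Cspg4 was not tested.

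Kidney injury markers rose beside Tagln, 9 of 13 measured at day 7 and 10 of 13 at day 10, against 1.19% and 1.26% of all probe sets. Havcr1, kidney injury molecule 1 of damaged proximal tubules, rose by 1.77 ± 0.27 at day 7 (limma adjusted p = 3.40e-05) and 2.87 ± 0.27 at day 10 (1.74e-09). In F it rose at day 7 by 3.18 (limma adjusted p = 0.00128), and in LF by 2.96 (0.000981). The day 7 difference of Tagln in LF was 0.295 ± 0.15 and did not pass (limma adjusted p = 0.275). In L, where the day 7 difference of Tagln was 0.04, that of Havcr1 was 0.037 ± 0.54 (limma adjusted p = 0.996). In FL, where Tagln rose by 0.72, Havcr1 differed by 0.90 ± 0.54 and did not pass (0.812). At day 10 in L, replicates 1 and 3 had Havcr1 at 6.63 and 7.04 with Tagln at 8.52 and 8.68, and replicates 2 and 4 had Havcr1 at 4.56 and 4.09 with Tagln at 8.29 and 8.41, pairs of arrays singled out after their values were seen. Other groups did not all show this, and in LF at day 10 the array with the highest Havcr1 (9.32) had the lowest Tagln (8.46). Over the 48 arrays, deviations of both genes from their group means correlated at r = 0.437 (Pearson), given without a test. The same r was -0.0067 on the 16 day 0 arrays and 0.477 on the 32 treated arrays. Deviations of Tagln also correlated with those of the array spread, at r = 0.295 over the 48 arrays and 0.658 on the day 0 arrays. The part of tubule damage in the Tagln differences was not tested.

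**Figure D5:**
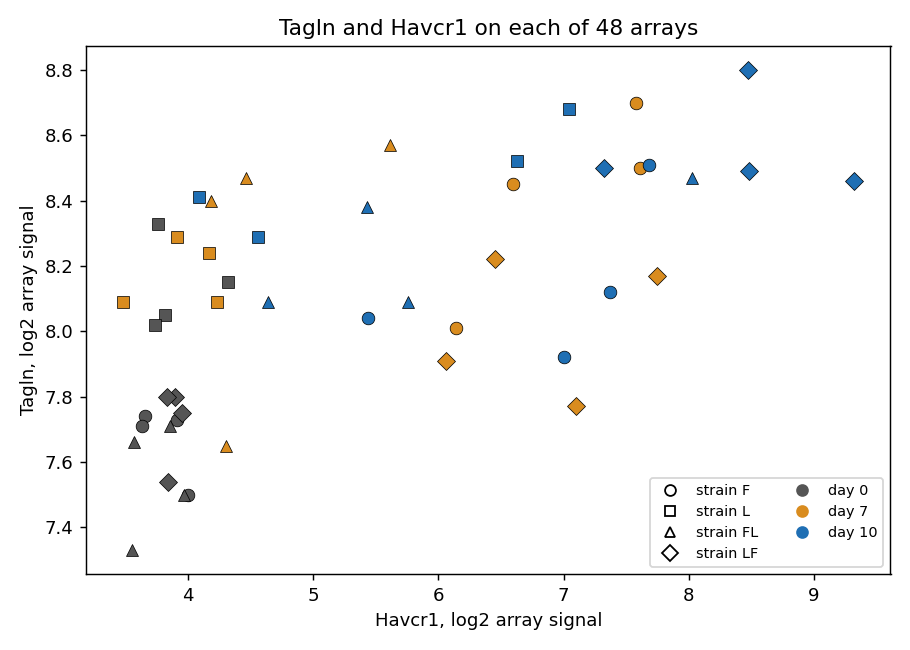
Tagln against Havcr1 on each of the 48 arrays, both as log2 array signal on axes that do not start at 0; the marker shape gives the strain and the colour the day. Carrier arrays of F, FL and LF sit at low values of both genes, the 4 L carrier arrays have Tagln above 8 at the same low Havcr1, and the LF day 10 arrays have Havcr1 above 7 with Tagln from 8.46 to 8.80.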

How the data were processed

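Kidney RNA of 48 samples was measured on 1-colour whole-transcript arrays after removal of ribosomal RNA, per the labels' protocols. The authors deposited log2 signals per probe set. RMA and limma appear in the submitters' processing notes, with no version or role. The probe annotation and any filter used are not given in the sources used here. The deposited medians differ between arrays, so the probe sets analysed here do not show the equal distributions of quantile normalization. Of 8797 probe sets, 7603 carried 1 gene symbol, 409 several and 785 none. Names were updated through Entrez identifiers for 7584 probe sets, all 3 described genes among them, and there were 0 missing values.

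Groups came from the labels. One mean per group was fitted with limma 3.58.1 in R 4.3.3 (36 residual and 3.69 prior degrees of freedom) and p-values were adjusted by Benjamini and Hochberg over all probe sets at 0.05. The described genes and the 15 gene lists (173 of 247 genes measured) were chosen with earlier results of these data known. Besides the 3 genes, the text names up to 4 genes of each list with the smallest p at day 7 and at day 10, the 5 genes most like each described gene, and Cnn1, Pdgfrb, Rgs5, Vim, Havcr1 and Cyp1a1. Other members of the lists, such as Smtn, Myocd, Klf4, Synm, Tgfb1 and Tagln2, were named after their values were seen.

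Each replicate number was taken as 1 run because the labels' array names share a string, which is an inference. Deviations from group means correlated at 0.0942 on average over 264 pairs of arrays with the same number and -0.0562 over 864 pairs with different numbers. Deviations sum to 0 within each group, which by itself draws the second value below 0, so the gap between the values does not measure a run effect. The run was tried as a block. The other alternatives were a second quantile normalization, subtraction of array medians, the array spread as a covariate, array weights, a filter on dim probe sets, a trended robust variance, a fit to the days compared only, the 5 arrays of lowest spread left out, and each run or array left out. The number of arrays limits the precision. The code was tested on simulated data.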

Additional observations from a re-analysis of the deposited data

Results flagged for a closer look

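In each group of 4 arrays, the array farthest from the others was compared with Dixon's critical value. Of 36 groups tested (12 for each of Tagln, Des and Cspg4), 4 held such an array, and chance gives about 1 in 20. Tagln at day 0 in F had replicate 1 at 7.50, below 7.71 to 7.74 on the other arrays. Tagln at day 10 in LF had replicate 4 at 8.80, above 8.46 to 8.50. Des at day 10 in L had replicate 1 at 6.07, below 6.44 to 6.50. Cspg4 at day 0 in FL had replicate 1 at 6.42, above 5.78 to 5.81, and that array also held the highest Des value of its group, 6.50.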

How the results depend on the processing

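The day 7 rise of Tagln in the mean of the strains stayed past the threshold under all 9 other settings (0.42 to 0.53), without each run (0.43 to 0.47) and without each single array (0.43 to 0.50). Cspg4 at day 7 was called after a second quantile normalization (0.22, limma adjusted p = 0.00682), with array medians subtracted (0.20, 0.0114), with the array spread as covariate (0.18, 0.0343) and with array weights (0.16, 0.0281), and ranged from 0.13 to 0.19 when a run or array was left out. The strain difference of Cspg4 at day 0 (F) ranged from 3.28 without replicate 3 to 12.7, was lost without replicates 2, 3 and 4 (adjusted p = 0.257, 0.515 and 0.109), and was 5.02 after a second quantile normalization. That of Tagln ranged from 3.34 to 7.94, and was 5.61 with the spread covariate, 6.53 with weights, 5.82 without the dimmest probe sets and 8.07 without the 5 arrays of lowest spread. The Tagln interaction F ranged from 2.62 to 7.27. The Cspg4 difference of FL at day 10 ranged from -0.013 without replicate 4 to 0.31 without replicate 1. The causes were not tested.

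With a whole run out (12 arrays fewer), the Tagln day 7 call was lost in F without replicates 1, 2 or 4 (limma adjusted p = 0.174, 0.0704 and 0.0501) and in FL without 1, 2 or 3 (0.414, 0.372 and 0.383). Cspg4 lost 4 of 7 strain pair calls after a second quantile normalization (adjusted p = 0.0675 to 0.136) and 3 with medians subtracted (0.0573 to 0.0861). Among tests of the 3 genes, the replicate block changed the calls of Tagln from day 7 to day 10 in LF, of Cspg4 at day 7 in LF and of Cspg4 in L against FL at day 10. Among listed genes it added Pdlim3 (limma adjusted p = 0.0356) and Lgals3 at day 7 and Pdgfc, Adgre1 and Umod at day 10. It gave the Tagln day 7 rise as 0.45 (adjusted p = 0.00018). Counts of probe sets called higher and lower at day 7 were 105 and 330, against 189 and 787 with the block, 267 and 367 after a second quantile normalization, 256 and 310 with medians subtracted, and 268 and 225 with the spread covariate. At day 10 they were 111 and 101, against 161 and 136, 206 and 201, 180 and 177, and 272 and 236.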
